A study of Mus musculus with 24 samples.

Results

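The ventral and dorsal suprachiasmatic nucleus (SCN) of mice that received no light pulse were compared on 8 of the 24 arrays of a microarray study, 4 from the ventral and 4 from the dorsal region. The arrays were chosen by their labels alone, as all sham-treated arrays of these regions. The C57BL/6 mice were 8 weeks old when obtained, lived in constant dim red light for at least 7 days, and were killed 3.5 h after a sham treatment. The other treatment of the study was a light pulse of 30 min, and the 4 ventral and 4 dorsal light arrays are used below only as a second look at genes chosen on the sham arrays. Each region was cut by laser from frozen coronal sections of 25 µm stained with haematoxylin. The labels call the ventral region core and the dorsal region shell, and the 4 sham arrays of the central region between them are described without a test. RNA was mixed with a bacterial ribosomal RNA carrier, amplified and labelled in batch A (replicates 1 and 2 of every group) or batch B (replicates 3 and 4). The labels do not say which arrays hold tissue of 1 animal, or whether animals were pooled, so p-values measure only the spread between these samples.

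The SCN is the master circadian clock of mammals, and nearly all of its neurons use GABA. Its core receives most of the fibres from the retina and contains neurons that make vasoactive intestinal peptide (Vip), gastrin-releasing peptide (Grp) or calretinin, and its shell contains many neurons that make vasopressin (Avp). Core neurons signal to shell neurons through these peptides, and clock genes cycle in both.

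Peptide genes had the largest single differences between the regions of sham mice, Vip on the ventral and Sst on the dorsal side. Vip was 15.7-fold and Grp 4.41-fold higher in the ventral region, while the somatostatin gene Sst was 24.1-fold, the oxytocin gene Oxt 10.4-fold, the enkephalin precursor gene Penk 4.98-fold and Avp 2.68-fold higher in the dorsal region. The desmosomal cadherin genes Dsg2 and Dsc2 and 12 of 18 tested oligodendrocyte genes were also higher in the ventral region. The receptor gene Gpr101, the vesicle gene Syt1 and the homeobox gene Dlx1 were also higher in the dorsal region. Of 13494 genes tested, 369 were called different (2.73%), 231 higher in the ventral (1.71%) and 138 higher in the dorsal region (1.02%). A gene is called here when the adjusted p of limma, with the batch as a term, is under 0.05. All 369 differed in the same direction in both batches and in all 4 pairs of arrays with the same replicate number. Every one of them also had its ventral and dorsal arrays apart within each batch, which was true of 13.1% of all tested genes. The calls were made on these same arrays, so these regularities follow largely from the selection and are no separate evidence. The median difference of the called genes on the log2 scale was 1.02 for those higher in the ventral and -0.98 for those higher in the dorsal region, and 124 and 66 of them differed at least 2-fold. At least 4-fold differences were found for 11 and 9 genes.

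The counts rest on few arrays. Without 1 array the ventral count lay between 129 and 236 and the dorsal count between 61 and 140. It was 143 and 75 without ventral array 1, 140 and 84 without ventral array 2, 182 and 83 without ventral array 3, and 132 and 61 without ventral array 4. It was 129 and 75 without dorsal array 1, 136 and 94 without dorsal array 2, 166 and 76 without dorsal array 3, and 236 and 140 without dorsal array 4. Through all 8 omissions 151 of the 369 calls held, 106 ventral and 45 dorsal, and all 369 differences kept their sign. The batch term is needed for these calls, since without it limma called 0 genes higher in the ventral (40 at unadjusted p under 0.05) and 1 higher in the dorsal region (23 at unadjusted p under 0.05), which was Sst.

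**Figure D1:**
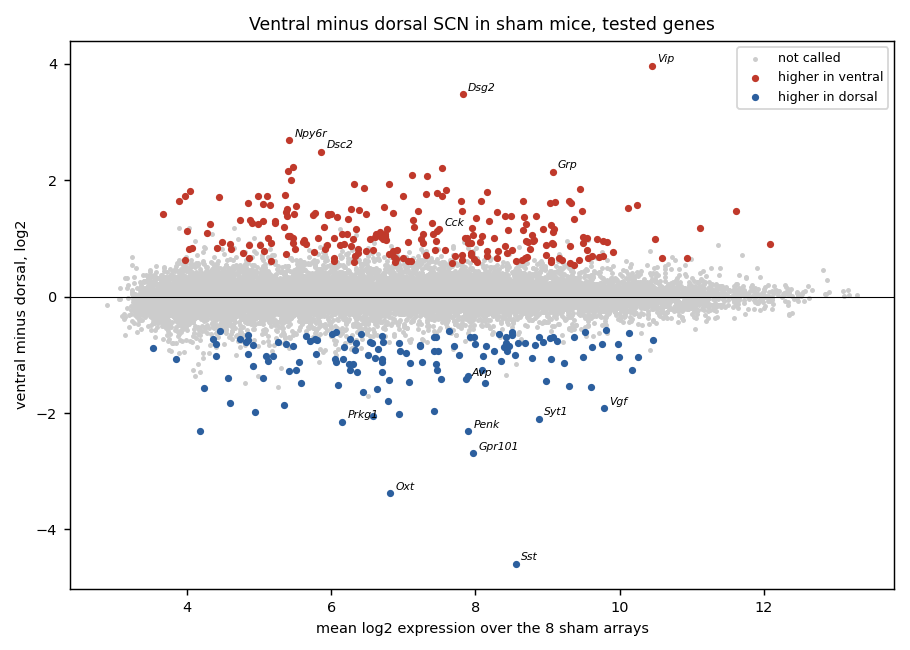
Difference between ventral and dorsal SCN (log2, ventral minus dorsal) against the mean log2 expression over the 8 sham arrays, 1 point for each of 13494 tested genes. Red points are the 231 genes called higher in ventral and blue points the 138 called higher in dorsal SCN, and Vip and Sst lie farthest from 0 on the 2 sides.

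Array values fell into separate ranges by batch. The median log2 value of the ventral and dorsal sham arrays was 3.52 to 3.62 in batch A and 4.82 to 5.05 in batch B. The 3′ control probe set of Gapdh exceeded the 5′ one, a gap that grows when cDNA is short, by 2.02 to 3.28 in batch A and 0.907 to 0.986 in batch B. Within each batch this gap overlapped between the regions, as did the medians in batch B, while in batch A the medians were 3.59 and 3.52 in ventral and 3.62 and 3.60 in dorsal arrays. Each array correlated with the other arrays of its batch at a median of 0.974 to 0.983. A log2 value of 4 was the level that a gene had to exceed on at least 4 of the 24 arrays to be tested. In batch A 57 ventral and 27 dorsal genes had a mean below it in their lower region, and a fold is given only where both regions had means above it in both batches.

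The promoters of Vip and Sst are shown because these genes had the largest difference in each direction. The promoter sequences are from the RefSeq table of build GRCm38.p6 and reach from 250 bases before to 50 bases after the annotated start. The Vip promoter is chr10:5638968-5639267 on the plus strand and the Sst promoter is chr16:23890795-23891094 on the minus strand. Both are written 5′ to 3′, and capitals mark the cAMP response element TGACGTCA.
Vip: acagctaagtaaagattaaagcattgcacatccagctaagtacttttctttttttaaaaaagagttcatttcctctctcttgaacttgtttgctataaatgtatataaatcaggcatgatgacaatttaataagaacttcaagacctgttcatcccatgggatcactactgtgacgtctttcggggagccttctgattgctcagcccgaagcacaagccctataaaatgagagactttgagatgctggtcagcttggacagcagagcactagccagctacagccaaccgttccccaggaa
Sst: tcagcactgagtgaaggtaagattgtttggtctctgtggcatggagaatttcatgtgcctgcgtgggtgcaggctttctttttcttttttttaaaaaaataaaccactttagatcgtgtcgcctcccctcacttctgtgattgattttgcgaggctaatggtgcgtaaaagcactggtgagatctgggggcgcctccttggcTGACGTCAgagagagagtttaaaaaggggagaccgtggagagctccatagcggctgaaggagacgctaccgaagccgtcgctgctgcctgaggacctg
The element in the Sst promoter, through which cAMP signalling is known to act on this gene, begins at position -48 from the start. The Vip window held no exact match to it. It did hold tgacgtct, which differs from it in the last base, so this does not show that Vip lacks a working element. Near matches were not counted in any promoter. Nor was there an exact match to the E-box CACGTG or the D-box TTATGTAA, the elements bound by CLOCK and BMAL1 and by the PAR bZIP factors. On both strands, CRE matches were found in 0.820% of 244 promoters of the 180 matched ventral genes, in 4.14% of 145 promoters of the 105 matched dorsal genes and in 2.87% of 13957 promoters of all 10880 matched tested genes. E-boxes were found in 6.97%, 8.28% and 9.39% of the same promoters, and D-boxes in 0.410%, 0.690% and 0.588%. These shares rest on few promoters, with 2 CRE matches on the ventral and 6 on the dorsal side.

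Of the peptides that define the core, Vip separated the regions most widely. Its log2 values were 12.16, 12.07, 12.64 and 12.86 on ventral arrays 1 to 4 and 8.29, 6.87, 8.14 and 10.55 on dorsal arrays 1 to 4. All ventral arrays lay above all dorsal arrays, and dorsal array 4 was the highest of its group. The difference was 3.97 ± 0.481 (log2, SE, 4 against 4 arrays, limma adjusted p = 0.00156). Grp, the peptide gene of other retinorecipient core neurons, had log2 values of 9.60, 9.64, 10.64 and 10.69 in ventral and 6.87, 7.59, 8.42 and 9.11 in dorsal arrays. These ranges did not overlap either, and the difference was 2.14 ± 0.208 (adjusted p = 0.000545). Calb2, which encodes the calcium-binding protein calretinin, was at 8.01, 7.81, 9.87 and 9.67 in ventral and at 6.23, 6.75, 8.64 and 8.57 in dorsal arrays. Its groups were apart within each batch but not across batches, and it was 2.45-fold higher in the ventral region (1.29 ± 0.153, adjusted p = 0.00142).

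The other 3 tested core markers did not pass. Calb1, which encodes calbindin, differed by -0.47 (adjusted p = 0.131), Nts, the neurotensin gene, by -0.65 (adjusted p = 0.258) and Tac1, the substance P precursor gene, by -1.26 (adjusted p = 0.260). The Tac1 difference came largely from dorsal array 4, at 7.20, where the other dorsal arrays read 3.31, 3.21 and 5.12. Of the 6 core markers 3 were higher and 3 lower in the ventral region, all at an unadjusted limma p under 0.05. Their median of 0.41, beside 0.01 for all tested genes, lies between opposite differences and gives no common direction. The mean level of the list was 7.81 to 7.90 in ventral and 6.60 to 6.64 in dorsal arrays of batch A. In batch B the ranges overlapped, at 8.67 to 8.90 in ventral and 7.90 to 8.78 in dorsal arrays. A 7th core marker, Nms, had no probe set with this symbol in the annotation used.

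On the dorsal side Sst, the gene of an inhibitory peptide, showed the widest separation of all. Its log2 values were 6.64, 6.72, 6.06 and 5.63 in ventral and 11.37, 10.29, 10.76 and 10.99 in dorsal arrays. No ventral array came within 3 log2 units of any dorsal array. The difference was -4.59 ± 0.256 (adjusted p = 3.74e-05), and it is the single call that held in every alternative tried, with a highest adjusted p of 0.0327 in batch B alone. Penk was at 6.43, 5.98, 7.52 and 7.05 in ventral and at 9.22, 7.95, 9.39 and 9.68 in dorsal arrays, without overlap (-2.32 ± 0.254, adjusted p = 0.00106). Avp, the defining peptide gene of the shell, was at 6.28, 6.61, 7.98 and 7.78 in ventral and at 7.52, 8.06, 9.50 and 9.24 in dorsal arrays. Its groups were apart within each batch, with differences of -1.24, -1.45, -1.52 and -1.47 in the 4 pairs (-1.42 ± 0.162, adjusted p = 0.0012).

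Oxt is made by magnocellular and parvocellular neurons outside the SCN, and it stood in the list of neighbouring hypothalamic neurons. Its log2 values were 4.71, 4.56, 5.82 and 5.43 in ventral and 8.98, 6.51, 8.95 and 9.60 in dorsal arrays. All dorsal arrays were above all ventral arrays, with dorsal array 2 nearest to them (-3.38 ± 0.424, adjusted p = 0.00202). The list had 10 tested members, of which Oxt was called (10%, beside 2.73% of all tested genes). Of the 10, 7 were lower in the ventral region, with a median of -0.43. Its mean log2 level was 4.31 to 4.71 in ventral and 5.08 to 5.15 in dorsal arrays of batch A, and 5.52 to 5.71 and 6.02 to 6.04 in batch B. Otp, a homeobox gene of neurosecretory neurons, differed by -0.60 and did not pass (adjusted p = 0.157). Hdc, another member, went the other way, at 0.82, and was not called. At an unadjusted limma p under 0.05 the list had 3 members, 1 higher in the ventral and 2 higher in the dorsal region. The part of neurons from outside the SCN in the dorsal differences was not tested. In dissected tissue, fewer cells of a type and less RNA per cell cannot be told apart.

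Of the 8 shell markers, 1 was called in each direction (25% called, beside 2.73% of all tested genes) and the median was -0.21. Cck, the cholecystokinin gene, is listed as a shell marker but was 2.23-fold higher in the ventral region. It read 7.85, 7.82, 8.39 and 8.23 in ventral and 6.61, 6.78, 7.12 and 7.13 in dorsal arrays, without overlap (1.16 ± 0.122, adjusted p = 0.000921). Its central mean was below the dorsal mean in both batches, from values of 5.45, 6.69, 6.90 and 5.82. The prokineticin gene Prok2, an output signal of the SCN, differed by -0.96 (adjusted p = 0.19), Avpr1a, a vasopressin receptor gene, by -0.32 (adjusted p = 0.58) and Rgs16, a regulator of G protein signalling, by -0.12 (adjusted p = 0.906). Nmu was at or below 3.85 on every ventral and dorsal array, under the level of 4.

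Among 30 neuropeptide precursor genes, 7 were called, or 23.3%, beside 2.73% of all tested genes. The gene lists were chosen with earlier results of these data known, so the shares called in them, here and below, are description only. These were Vip, Grp and Cck on the ventral side and Sst, Oxt, Penk and Avp on the dorsal side. The median of the 30 was -0.28, and 21 of them were lower in the ventral region. Of 15 genes of secretory granules and peptide processing 4 were called (26.7%). Vgf, a granule protein that is cut into several peptides, was 3.78-fold higher in the dorsal region. It read 8.12, 7.82, 10.16 and 9.18 in ventral and 10.26, 10.13, 11.45 and 11.11 in dorsal arrays (-1.92 ± 0.225, adjusted p = 0.0014). Sytl4 (-0.81, adjusted p = 0.0129) and Ptprn (-0.59, adjusted p = 0.044), both of granule membranes, were also higher in the dorsal region, and Cadps2, which primes granules for release, was higher in the ventral region (0.90, adjusted p = 0.0206). The calls of these 3 ended when 1 array was left out. Sytl4 had an adjusted p of 0.052 without ventral array 1, Ptprn passed only without dorsal array 4 and reached 0.163 without ventral array 4, and Cadps2 passed only without ventral array 3 or dorsal array 4 and reached 0.0812 without ventral array 1. Sytl4 and Ptprn were not called in a fit of all 24 arrays, nor Sytl4 with all 12 sham arrays in the fit, nor Ptprn with every probe set tested. The granule list had a median of 0.02, which became -0.01 with centred arrays and -0.03 after quantile normalization.

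**Figure D2:**
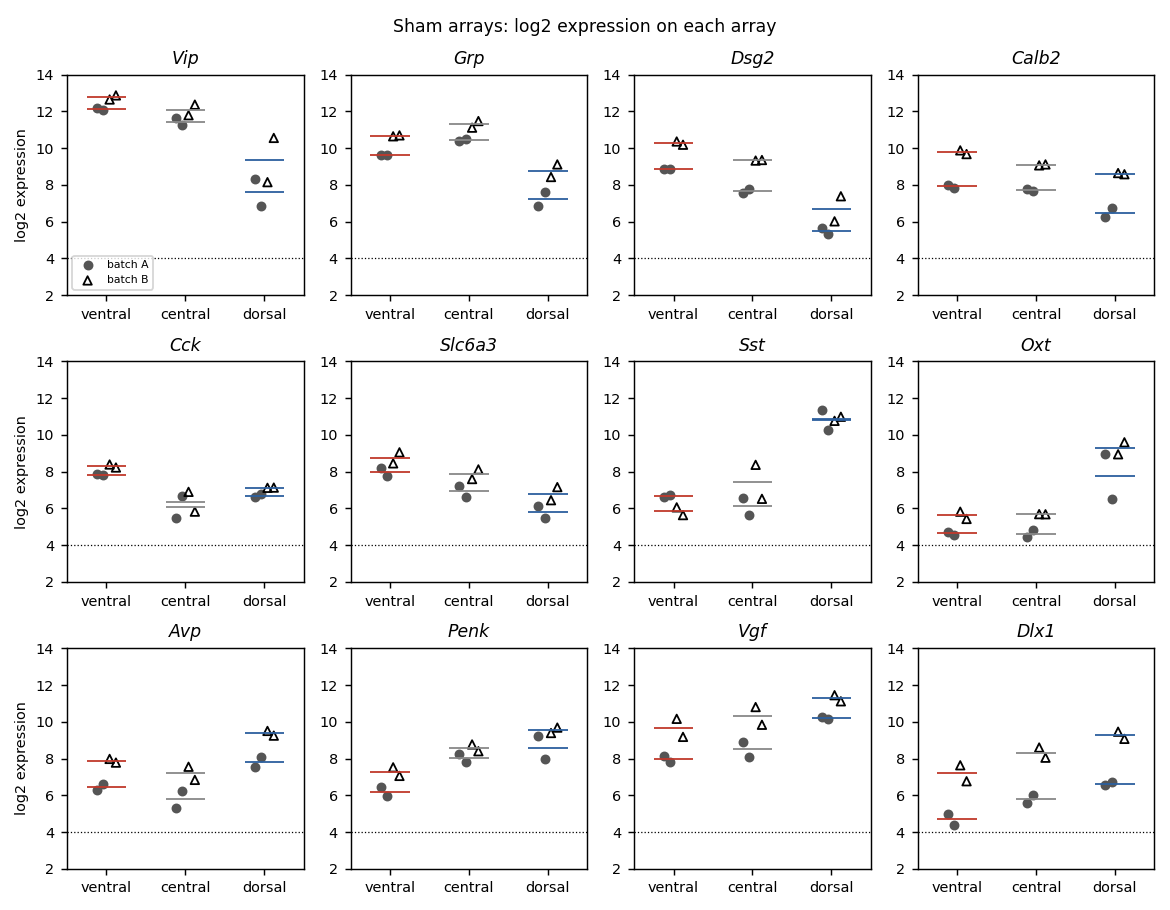
Log2 expression of 12 genes on each of the 12 sham arrays, by region, with filled circles for batch A, open triangles for batch B and bars for the mean of each batch and region. The dotted line is the level of 4 used in the filter. Vip, Grp, Cck, Slc6a3 and Dsg2 lie higher on all ventral than on all dorsal arrays, and Sst, Oxt and Penk lie higher on all dorsal arrays.

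After Vip the largest ventral difference was that of Dsg2. Dsg2, which encodes the desmosomal cadherin desmoglein 2, read 8.83, 8.87, 10.36 and 10.18 in ventral and 5.65, 5.31, 6.01 and 7.38 in dorsal arrays. All ventral arrays were above all dorsal arrays, an 11.1-fold difference (3.48 ± 0.25, adjusted p = 0.000115), and other probe sets of Dsg2 gave 3.61 and 2.87. Dsc2, which encodes its desmosomal partner desmocollin 2, differed by 2.49 ± 0.28 (adjusted p = 0.0012), from dorsal values of 3.94, 3.46, 4.84 and 6.21. Nectin3, an immunoglobulin-like adhesion protein, differed by 2.01 ± 0.231 (adjusted p = 0.00122), from dorsal values of 2.92, 3.29, 5.49 and 6.05. The other probe sets of Nectin3 gave 1.37, 0.73, 0.64, 0.62 and 0.17. Npy6r, a receptor of the neuropeptide Y family, differed by 2.69 ± 0.25 (adjusted p = 0.00052), and its dorsal values of 2.60 and 2.77 in batch A were below the level of 4. Slc6a3, the dopamine transporter gene, read 8.21, 7.77, 8.45 and 9.05 in ventral and 6.10, 5.47, 6.45 and 7.16 in dorsal arrays, without overlap. It was 4.22-fold higher in the ventral region (2.08 ± 0.224, adjusted p = 0.00106). Hbegf, a ligand of the EGF receptor, was 3.84-fold higher (1.94 ± 0.189, adjusted p = 0.000545). Gsn, which encodes the actin-severing protein gelsolin, was 3.81-fold higher (1.93 ± 0.252, adjusted p = 0.00259) by a probe set of a type that may match further transcripts, and the other probe sets of Gsn gave 1.84, 1.07, 1.02, 0.62 and -0.05. Thsd7b, Tmem178 and Fam184b completed the 14 largest ventral differences, with 2.21, 2.09 and 2.23, together with the myelin genes Ermn and Mog described further on. Another probe set of Fam184b, with a mean of 5.66, gave 0.19.

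On the dorsal side Gpr101, an orphan receptor, followed Sst and Oxt. It read 5.61, 5.65, 7.35 and 7.88 in ventral and 8.43, 8.30, 10.47 and 10.06 in dorsal arrays, without overlap, and was 6.46-fold higher in the dorsal region (-2.69 ± 0.158, adjusted p = 3.74e-05). Syt1, the calcium sensor of synaptic vesicle release, read 7.09, 6.95, 8.58 and 8.69 in ventral and 9.19, 9.34, 10.78 and 10.39 in dorsal arrays. Again no array of one region reached the other (-2.10 ± 0.144, adjusted p = 8.82e-05). Prkg1, a cGMP-dependent protein kinase, differed by -2.15 ± 0.132 (adjusted p = 3.74e-05), with the 4 pairs between -2.32 and -2.05, from ventral values of 3.88 and 3.95 in batch A. Another probe set of Prkg1 differed by -0.61. Asb4, a subunit of ubiquitin ligases, was 4.15-fold (-2.05 ± 0.207, adjusted p = 0.000739) and Fstl5, of the follistatin-like family, 3.90-fold higher in the dorsal region (-1.96 ± 0.19, adjusted p = 0.000545). Calcr, the calcitonin receptor gene, was 3.01-fold higher (-1.59 ± 0.212, adjusted p = 0.00287). Chodl, a membrane lectin, was 2.93-fold higher (-1.55 ± 0.184, adjusted p = 0.00142). Elmo1, a partner of Rac activators, differed by -1.64 ± 0.305 (adjusted p = 0.0181), but its call ended without ventral array 1 (adjusted p = 0.0624) and without dorsal array 1.

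Of 21 tested core clock genes 1 was called (4.76%, beside 2.73% of all tested genes), and the median was -0.05. At an unadjusted limma p under 0.05 there were 7, 2 ventral and 5 dorsal, beside 1758 of 13494 tested genes. With centred arrays, and after quantile normalization, 2 were called higher in the dorsal region. Rorb, a nuclear receptor of the ROR family, was 1.61-fold higher in the dorsal region (-0.68 ± 0.147, adjusted p = 0.0355). It read 6.10, 6.34, 8.90 and 8.95 in ventral and 7.21, 6.80, 9.39 and 9.64 in dorsal arrays. Its call held only without dorsal array 3 and reached an adjusted p of 0.125 without ventral array 1, and it was also lost when every probe set was tested. The other probe sets of Rorb gave -0.14 and -0.51. The repressor genes Per1 (-0.39, adjusted p = 0.573), Per2 (-0.78, adjusted p = 0.171) and Cry1 (-0.44, adjusted p = 0.134) and the activator genes Arntl (-0.30, adjusted p = 0.316) and Clock (0.45, adjusted p = 0.365) did not pass. For Per2 the batches read differently, with pairs of -1.60 and -1.37 in batch B, while ventral arrays at 4.55 and 4.57 met dorsal arrays at 4.55 and 4.73 in batch A. Nr1d1 (0.15, adjusted p = 0.731) and Dbp (0.07, adjusted p = 0.898), which cycle with high amplitude, did not pass. Npas2 differed by -0.62 and was not called either, and another probe set of Npas2, with a mean of 4.37, gave 0.07.

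Of 38 transcription factors of the SCN and hypothalamus 3 were called (7.89%, beside 2.73% of all tested genes), and the median was 0.18. Dlx1, a homeobox factor of GABA neurons, was 4.03-fold higher in the dorsal region (-2.01 ± 0.21, adjusted p = 0.000921), with 4.97, 4.39, 7.63 and 6.76 in ventral and 6.56, 6.71, 9.46 and 9.07 in dorsal arrays. Its neighbour in the genome and in function, Dlx2, was 2.40-fold higher there (-1.26 ± 0.184, adjusted p = 0.00493). Tshz3, a zinc finger factor, was higher in the ventral region (0.72, adjusted p = 0.0238), a call that ended in 5 of the 8 omissions of an array, with 0.084 without ventral array 1, and in a fit of all 24 arrays. The factors that mark the SCN as a whole did not pass, with Lhx1 at 0.79 (adjusted p = 0.103), Six3 at 0.51 (adjusted p = 0.149), Zfhx3 at 0.27 (adjusted p = 0.527) and Six6 at 0.20 (adjusted p = 0.72). All 4 were well above the level of 4 on every ventral and dorsal array, with a lowest value of 6.33 for Six6, so that both regions carry these SCN markers.

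Receptor genes were called in both directions, with 12.5% of the peptide receptors and 11.8% of the amine and melatonin receptors called, beside 2.73% of all tested genes. Of 24 peptide receptors Calcr, Npy2r (-1.56, adjusted p = 0.0459) and Sstr2, a receptor of somatostatin (-0.73, adjusted p = 0.0498), were higher in the dorsal region, with a list median of -0.04. The list does not hold Npy6r (2.69), called higher in the ventral region. Nor does it hold the receptor gene Qrfpr (-2.30), called higher in the dorsal region, with a mean of 3.73 over all arrays. Npy2r rested on batch B, with pairs of -0.61, -0.51, -2.33 and -2.80, was lost with the replicate number as a block (adjusted p = 0.0562) and reached 0.142 without ventral array 4. Sstr2 was lost in each of the 8 omissions of an array and reached 0.154 without ventral array 2. Npy2r, Sstr2 and Htr2c were not called in a fit of all 24 arrays. Npy2r and Sstr2 were also not called with every probe set tested or without the filter, nor Sstr2 after quantile normalization or with a trended robust variance. Vipr2, the receptor of Vip in the SCN, differed by 0.13 (adjusted p = 0.807) and Prokr2, the receptor of Prok2, by 0.41 (adjusted p = 0.259). Of 17 receptors in the list of amine and melatonin receptors, Mtnr1a, a melatonin receptor, was higher in the ventral region (1.26 ± 0.184, adjusted p = 0.00493), with 5.13, 4.89, 6.88 and 6.52 in ventral and 3.76, 4.33, 5.14 and 5.14 in dorsal arrays. Htr2c, a serotonin receptor, was also higher there (0.92, adjusted p = 0.0323), a call lost in 6 omissions and at 0.118 without ventral array 4. Drd1, a dopamine receptor gene, differed by 0.97 and did not pass (adjusted p = 0.0832), although it did with the replicate number as a block (adjusted p = 0.00562).

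Glycine receptor subunits went in opposite directions. Glra2 was 3.48-fold higher in the dorsal region (-1.80 ± 0.188, adjusted p = 0.000921) and Glra3 2.03-fold higher in the ventral region (1.02 ± 0.139, adjusted p = 0.00327). Glra2 read 4.92, 5.18, 6.86 and 6.62 in ventral and 7.09, 6.27, 8.69 and 8.73 in dorsal arrays. Gabrb2, a GABA receptor subunit, was 1.82-fold higher in the dorsal region (-0.86, adjusted p = 0.0052), so that 3 of 23 genes of GABA and glycine signalling were called (13.0%, beside 2.73% of all tested genes), with a median of -0.02. Of 24 glutamate receptor genes Gria3, an AMPA receptor subunit (-0.94, adjusted p = 0.0139), and Grm7, a presynaptic receptor (-0.78, adjusted p = 0.0485), were higher in the dorsal region (8.33% of the list called), with a median of -0.12. Gria3 was lost without ventral array 2 or dorsal array 1 (0.0579), and Grm7 in 6 omissions, with 0.144 without ventral array 1. Of 31 regulators of G protein signalling, Pde4b, which breaks down cAMP, was higher in the ventral region (0.95, adjusted p = 0.00374), and Rgs10 (-1.02, adjusted p = 0.0124), Gng4 (-0.71, adjusted p = 0.0145) and Rasd2 (-1.26, adjusted p = 0.0203) were higher in the dorsal region (12.9% of the list called), with a median of -0.11. Rgs10 was lost without ventral or dorsal array 2 (up to 0.0528), Gng4 without ventral array 4 or dorsal array 1 (up to 0.0712), and Rasd2 without ventral array 1, 2 or 4 or dorsal array 1 (up to 0.0806). In a fit of all 24 arrays Grm7, Gng4 and Rasd2 were not called, and Grm7 was not called either with every probe set tested or without the filter.

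Ion channel genes were called in both directions, with 9.30% of the potassium and 14.3% of the sodium, calcium and HCN channel genes called, beside 2.73% of all tested genes. Of 43 potassium channel genes, the M-current channel gene Kcnq5 (1.18, adjusted p = 0.00374) and the delayed rectifier gene Kcna5 (1.24, adjusted p = 0.00559) were higher in the ventral region. The inward rectifier genes Kcnj9 (-0.86, adjusted p = 0.00706) and Kcnj3 (-0.67, adjusted p = 0.0357), whose products form G protein-gated channels, were higher in the dorsal region. Kcnj3 was lost in each of the 8 omissions, with 0.112 without dorsal array 3. Of 28 sodium, calcium and HCN channel genes, Cacna2d3 (0.99, adjusted p = 0.0124), the intracellular calcium release channel gene Ryr2 (1.00, adjusted p = 0.0317) and the calcium channel gene Cacna1d (0.66, adjusted p = 0.0472) were higher in the ventral region. The sodium channel gene Scn1a was higher in the dorsal region (-0.69, adjusted p = 0.0195), although another probe set of Scn1a differed by 0.19. Cacna2d3 was lost without dorsal array 1 (0.0531) or dorsal array 2. Ryr2 was lost in 6 omissions (0.114 without ventral array 2), Cacna1d in 7 (0.163 without ventral array 4) and Scn1a in 7 (0.0733 without ventral array 4). In a fit of all 24 arrays Kcnj9, Kcnj3, Cacna2d3, Ryr2, Cacna1d, Scn1a and Hpcal1, a calcium sensor gene, were not called. Kcnj3 was also not called with all 12 sham arrays in the fit or with every probe set tested, and Cacna1d not with every probe set tested, without the filter or with centred arrays. The list medians were -0.09 and 0.05. Among 23 calcium-binding proteins and sensors Calb2 and, on the dorsal side, Hpcal1 (-0.64, adjusted p = 0.0205) were called (8.70%), the latter lost in 6 omissions with 0.073 without ventral array 3, and the median was -0.16.

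Of 57 axon guidance and adhesion genes 7 were higher in the ventral and 4 in the dorsal region (19.3% called, beside 2.73% of all tested genes), with a median of 0.13. Dsg2, Dsc2 and Nectin3 are not in this list. The synaptic adhesion gene Lrrtm3 was 3.45-fold (1.79 ± 0.164, adjusted p = 0.000496) and the ephrin receptor gene Ephb1 2.60-fold higher in the ventral region (1.38 ± 0.179, adjusted p = 0.00251). The protocadherins divided, with Pcdh20 (1.31, adjusted p = 0.00427) and Pcdh19 (1.15, adjusted p = 0.0057) higher in the ventral and Pcdh11x (-1.07, adjusted p = 0.0124) higher in the dorsal region. Cdh13, a cadherin without a membrane-spanning segment, was 2.58-fold higher in the dorsal region (-1.37 ± 0.133, adjusted p = 0.000545), and another probe set of Cdh13 gave -1.01. Epha7, Unc5c and Epha3 on the ventral and Cntn6 and Cntnap4 on the dorsal side completed the called members. Of these, Epha7 was lost without dorsal array 2 (0.0582) and Pcdh11x without ventral array 1 (0.052). Cntn6 was lost in 3 omissions (0.0579 without dorsal array 1), Unc5c in 6 (0.0856 without dorsal array 1), Epha3 in 6 (0.118 without ventral array 4) and Cntnap4 in 7 (0.107 without dorsal array 1). Cntnap4 was not called in a fit of all 24 arrays, and Epha3 was not called with the replicate number as a block (adjusted p = 0.0650).

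Of 44 growth factor signalling genes, 7 were higher in the ventral and 1 in the dorsal region (18.2% called in either direction, beside 1.71% and 1.02% of all tested genes in the 2 directions), with a median of 0.18. Beside Hbegf these were Sfrp2, a secreted Wnt modulator (3.09-fold, 1.63 ± 0.187, adjusted p = 0.0012), and Fzd5, a Wnt receptor (2.71-fold, 1.44 ± 0.156, adjusted p = 0.00106). Fgfr2, an FGF receptor (1.06, adjusted p = 0.00427), Fgf13 (1.16, adjusted p = 0.00861), Inhbb, an activin subunit (0.90, adjusted p = 0.0101), and Igfbp5 (0.66, adjusted p = 0.0297) were higher too. Ghr, the growth hormone receptor gene, was higher in the dorsal region (-0.84, adjusted p = 0.0195). Ghr was lost in 5 omissions (0.0836 without ventral array 4) and Igfbp5 in 7 (0.101 without ventral array 1), and Fgfr2 and Inhbb were not called in a fit of all 24 arrays.

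**Figure D3:**
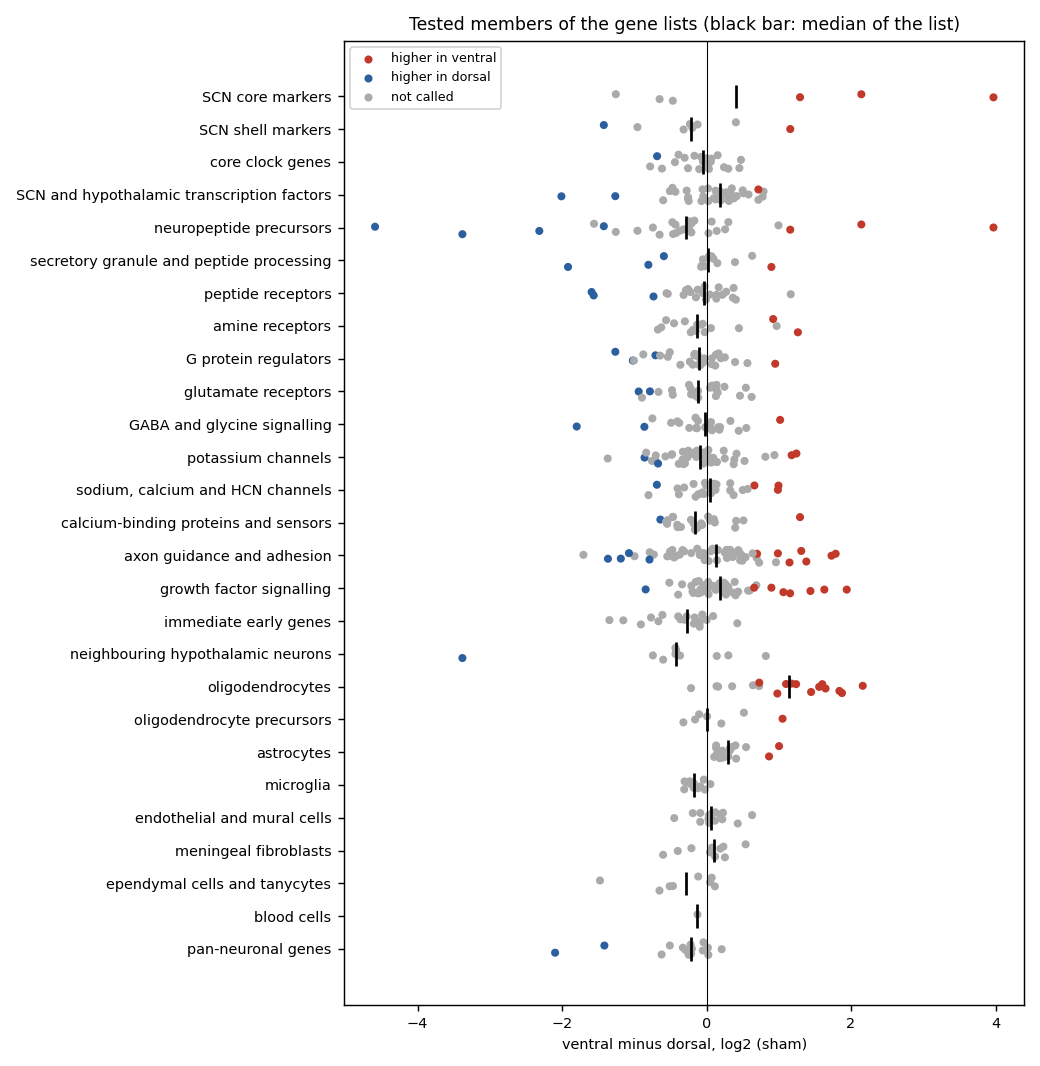
Difference between ventral and dorsal SCN on the sham arrays (log2, ventral minus dorsal) for the tested members of 27 gene lists, 1 point for each gene and a black bar for the median of the list. Red points are called higher in ventral, blue points higher in dorsal, and the oligodendrocyte list is the one whose points lie farthest to the ventral side, with a median of 1.14.

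Of 18 tested oligodendrocyte genes, 12 were higher in the ventral and 0 in the dorsal region (66.7% called, beside 2.73% of all tested genes), with a median of 1.14. Mobp, a structural gene of myelin, read 10.01, 8.97, 10.67 and 10.85 in ventral and 7.94, 7.25, 9.45 and 9.27 in dorsal arrays. It was 3.13-fold higher in the ventral region (1.65 ± 0.241, adjusted p = 0.00509). Mal was 3.04-fold (1.60 ± 0.191, adjusted p = 0.00142) and Fa2h, which makes hydroxylated myelin lipids, 2.94-fold higher (1.56 ± 0.134, adjusted p = 0.000369). Mog, a gene of the outer myelin membrane, was 3.67-fold higher (1.87 ± 0.250, adjusted p = 0.00287). Ermn (2.16, adjusted p = 0.000545) and Mag (1.10, adjusted p = 0.00319) had dorsal means below 4 in batch A, from 3.03 and 2.85 for Ermn and 3.13 and 3.36 for Mag. The other called members were Ugt8a (1.84), Aspa (1.45), Cldn11 (1.24), Mbp (1.18), Apod (0.98) and Tspan2 (0.73). Of these, Aspa was lost in 3 omissions (0.0647 without dorsal array 1), Mbp in 4 (0.0534 without dorsal array 1), Cldn11 in 6 (0.0775 without ventral array 1) and Apod in 7 (0.112 without dorsal array 1), and another probe set of Mbp differed by -0.07.

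The mean log2 level of the oligodendrocyte list was 7.20 to 7.60 in ventral, 6.11 to 6.23 in dorsal and 5.50 to 5.64 in central arrays of batch A. In batch B it was 8.68 to 8.90, 7.89 and 6.84 to 7.28. The ventral arrays were the highest and the central arrays the lowest in both batches. The ventral SCN lies on the optic chiasm, a myelinated tract. The part of oligodendrocytes in the other ventral differences was not tested. Precursor cells of oligodendrocytes had 1 call in 7 genes (14.3%, beside 2.73% of all tested genes). This was Bcas1 (1.05, adjusted p = 0.0222), which was lost in 5 omissions with 0.0628 without ventral array 2 and in a fit of all 24 arrays. The median of the precursor list, 0.01, became -0.02 with centred arrays and -0.04 after quantile normalization.

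All 17 astrocyte genes were higher in the ventral region, with a median of 0.30. Of all tested genes 6934 were higher and 6560 lower there. Of the 17 astrocyte genes 2 were called (11.8%, beside 2.73% of all tested genes). These were Gfap, an intermediate filament gene (1.00, adjusted p = 0.0343), and Aqp4, the water channel of astrocyte endfeet (0.86, adjusted p = 0.0222). Gfap was lost in a fit of all 24 arrays and in 5 omissions (0.118 without ventral array 4) and Aqp4 in 6 (0.0821 without dorsal array 1). The list level was 8.43 to 8.54 in ventral and 7.987 to 7.996 in dorsal arrays of batch A, and 10.19 to 10.28 and 10.003 to 10.067 in batch B. Of 12 microglial, 16 endothelial and mural, 10 meningeal and 8 ependymal and tanycyte genes, 0 were called by limma. At an unadjusted limma p under 0.05 there were 0 microglial, 1 endothelial, 1 meningeal and 4 ependymal genes, beside 1758 of 13494 tested genes. The 4 ependymal genes were all lower in the ventral region, with Ccdc153 (-1.48, adjusted p = 0.0641) the nearest to a call. With centred arrays 1 ependymal gene was called higher in the dorsal region. The medians of the microglial, endothelial and mural, meningeal and ependymal lists were -0.18, 0.07, 0.10 and -0.29. Of 17 pan-neuronal genes, Syt1 and the neurofilament gene Nefl (-1.41 ± 0.171, adjusted p = 0.00156) were called higher in the dorsal region (11.8%, beside 2.73% of all tested genes). Of the 17, 14 were lower in the ventral region, with a median of -0.22. The list level was 8.25 to 8.27 in ventral and 8.53 to 8.57 in dorsal arrays of batch A, and 9.77 to 9.80 and 10.16 to 10.34 in batch B. Whether the shift of neuronal and glial lists has a part in the calls of other lists was not tested.

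**Figure D4:**
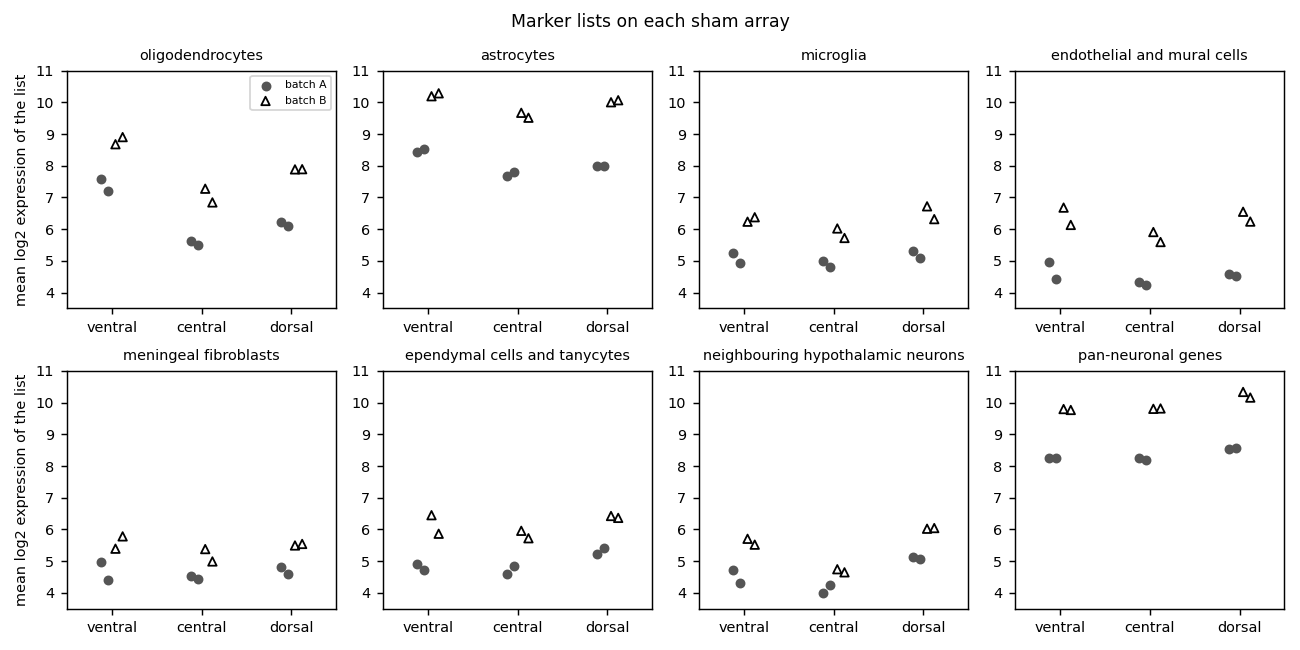
Mean log2 expression of 8 marker lists on each of the 12 sham arrays by region, with filled circles for batch A and open triangles for batch B. The oligodendrocyte list is highest on the ventral and lowest on the central arrays in both batches, and the pan-neuronal list is highest on the dorsal arrays.

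Immediate early genes, which neuronal activity induces, were not called in sham mice, with 0 of 19 by limma. At an unadjusted p under 0.05 there were 4, all higher in the dorsal region, beside 1758 of 13494 tested genes. With centred arrays 1 was called higher in the dorsal region. Of the 19, 16 were lower in the ventral region, with a median of -0.28. Fos differed by -1.15 ± 0.301 (adjusted p = 0.0812), Fosl2 by -1.35 (adjusted p = 0.0594) and Egr1 by -0.77 (adjusted p = 0.124). With the replicate number as a block, Fos (adjusted p = 0.0214) and Fosl2 (adjusted p = 0.0228) passed. Fos read 5.58, 6.32, 9.89 and 10.17 in ventral and 7.10, 7.99, 10.24 and 11.24 in dorsal arrays.

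The central mean lay between the ventral and dorsal means in both batches for a minority of the called genes. For 89 of the 231 ventral genes the central mean lay between the ventral and dorsal means in both batches, for 39 it lay above the ventral and for 45 below the dorsal mean, and for 58 the batches differed. Vip was between, with central values of 11.62, 11.24, 11.79 and 12.36. Grp was higher in central than in ventral arrays, at 10.38, 10.52, 11.11 and 11.47, as was Nectin3, at 6.16, 5.96, 8.77 and 8.47. Of the 12 called oligodendrocyte genes 11 were lower in central than in dorsal arrays. For 54 of the 138 dorsal genes the central mean lay between, for 40 below the ventral and for 2 above the dorsal mean, and for 42 the batches differed. Avp was lower in central than in ventral arrays, at 5.33, 6.23, 7.55 and 6.84. Penk was between, at 8.23, 7.83, 8.77 and 8.40. The 2 genes with central means above the dorsal ones were Adgrg2 and Lratd1, named after their values were seen. These comparisons share the ventral and dorsal arrays with the calls and were not tested, and the same counts were not made for all tested genes.

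The light arrays come from other samples and gave a second measurement of the same contrast. Of the 369 genes called in sham mice, 354 (95.9%) had the same direction on the light arrays, 219 ventral and 135 dorsal, beside 59.5% of the genes not called. Across the 369 genes the differences correlated at r = 0.906, and across all tested genes at 0.514, where both axes share the probe sets and the batches and genes are not independent. The 369 genes were chosen for clear sham differences, the smallest being 0.552 (log2). This choice can raise both their r and their share of 95.9%, so neither is like for like with the other genes. The median size of the light difference was 0.858 of the sham difference. On the light arrays alone 26 genes were called (0.193%), 14 ventral and 12 dorsal. Of these 24 were also called in sham mice in the same direction, which is 92.3% of the light calls and 6.50% of the sham calls. Dorsal light array 4 stood apart, with a Gapdh gap of 5.41 between 3′ and 5′ and a correlation of 0.872, at the median, with the arrays of its batch, where the other ventral and dorsal light arrays of that batch had 0.887 to 1.02 and 0.980 to 0.983. Without it 125 genes were called (0.926%), 68 ventral and 57 dorsal, and 89 of them were shared with the sham calls, 71.2% of the former and 24.1% of the latter. With the replicate number as a block the light counts were 4 and 7.

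Sst differed by -5.94 on the light arrays (adjusted p = 0.019) and by -5.71 without dorsal light array 4. Vip differed by 2.90 (adjusted p = 0.0398), Dsg2 by 3.31 (adjusted p = 0.00211), Glra2 by -2.79 (adjusted p = 0.00643), Penk by -1.86 (adjusted p = 0.00714), Dlx1 by -2.17 (adjusted p = 0.00714), Syt1 by -1.98 (adjusted p = 0.00714) and Mobp by 1.56 (adjusted p = 0.0398). Grp did not pass at 1.03 (adjusted p = 0.0736) but did without dorsal light array 4 (1.01, adjusted p = 0.0259), as did Avp (-1.44, adjusted p = 0.431, against -1.92, adjusted p = 0.00547). Oxt had no such difference, at -0.69 (adjusted p = 0.816). Its light values were 4.73, 5.65, 5.18 and 7.26 in ventral and 5.40, 8.83, 5.38 and 5.97 in dorsal arrays, so that the groups overlapped. Vgf differed by -0.70 (adjusted p = 0.535) and Fos by 0.97 (adjusted p = 0.171). The change of the contrast between sham and light was tested for every gene on all 16 arrays, and limma called 0 genes (401 at unadjusted p under 0.05). The lowest adjusted p was 0.0859 overall and 0.947 among the 369 genes, Oxt included, so no gene was shown to differ in its contrast between sham and light.

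**Figure D5:**
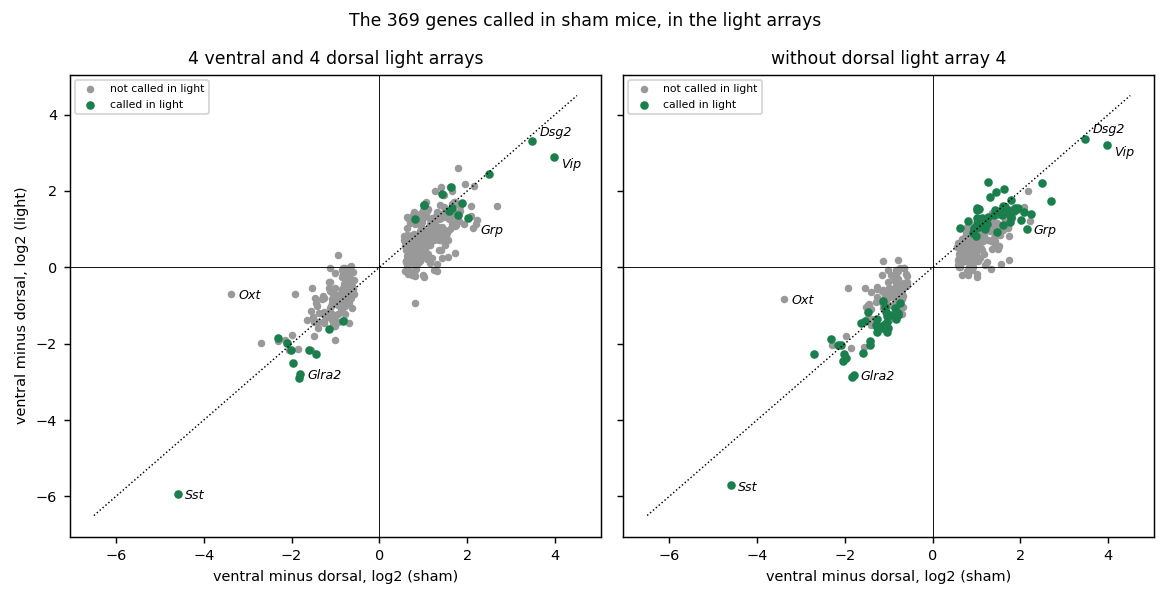
Difference between ventral and dorsal SCN on the light arrays against that on the sham arrays (log2, ventral minus dorsal) for the 369 genes called in sham mice, with all 8 light arrays on the left and without dorsal light array 4 on the right. Green points are called on the light arrays, the dotted line marks equal differences, and 354 of the 369 points on the left lie in the quadrants of equal direction, with Oxt far above the line at -0.69.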

How the data were processed

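The authors deposited 1 table of log2 expression values for 45101 probe sets on 24 Affymetrix arrays. MAS5, R 3.0.2 and GCRMA 2.32.0 stand in the submitters' processing notes without their roles. How the batches were normalized, and a genome build, are not given in the sources used here. The batches are not on 1 scale. Of the probe sets, 34945 had 1 gene symbol, 932 several, 9160 none, and 64 were controls. Each of 18193 genes was read from its brightest probe set, by the mean of the 24 arrays. Genes above log2 4 on at least 4 arrays were tested (13494), which left out 4699. Differences between regions were fitted with limma 3.58.1 in R 4.3.3 (lmFit, eBayes, region and batch, two-sided, Benjamini-Hochberg adjustment over all tested genes, 5 residual and 5.49 prior degrees of freedom), and tested on simulated data. The number of arrays limits the precision. Errors after ± are standard errors of log2 differences.

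Same-numbered ventral and dorsal arrays deviated together from their group means (r of 0.340 and 0.460 in the sham and 0.590 and 0.222 in the light batches), so the replicate number was also used as a block. Members and gene lists were chosen with earlier results of these data known. Named genes are the 14 largest called differences in each direction that went the same way in all 4 pairs with a higher mean above 5 in both batches, a panel of SCN and clock genes, and up to 6 called members of each list in each direction with the 3 smallest p; further called list members, and genes named for their central values, were added after their values were seen. No protein sequences are shown.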

Additional observations from a re-analysis of the deposited data

Results flagged for a closer look

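For each of the named genes the 4 arrays of a region, after subtracting the mean of the 4 ventral and dorsal sham arrays of their batch, were checked for 1 array far from the other 3, measured as its gap to the nearest array divided by the range of the 4. In 10 of 264 such groups this share was above Dixon's critical value for 4 samples, where chance alone gives about 1 in 20 groups. Dorsal sham array 4 stood apart for Tac1 (0.953), Avpr1a (0.972) and Cacna2d3 (0.958). Ventral sham array 3 stood apart for Kcnj3 (0.920), Aldh1a2 (0.878) and Prokr2 (0.854). Ventral sham array 2 stood apart for Cacna2d3 (0.892) and ventral sham array 1 for Pdgfra (0.893). Dorsal sham array 2 stood apart for Mtnr1a (0.981), and dorsal sham array 3 for Dlx2 (0.838). Of these genes Cacna2d3, Kcnj3, Mtnr1a and Dlx2 were called.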

How the results depend on the processing

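The difference between ventral and dorsal sham arrays had 231 genes called higher in the ventral and 138 higher in the dorsal region. These counts were 132 and 80 in a fit of all 24 arrays, 124 and 66 with a log2 difference of at least 1 as well, 115 and 35 in batch A alone, 0 (limma, 547 at unadjusted p under 0.05) and 1 in batch B alone, and 0 (40 at unadjusted p under 0.05) and 1 without a batch term. With 1 array left out they ranged from 129 to 236 and from 61 to 140. With the replicate number as a block they were 309 and 185, of which 226 and 135 were shared with the main calls, so that 8 of the 369 calls were lost, which were Npy2r, Epha3, Ccdc30, Syt7, Stxbp2, Grk5, Tent5a and Garem1. With centred arrays they were 229 and 188 and after quantile normalization 249 and 176, and the median difference of the tested genes, 0.01 before, was then -0.02 and -0.01. Of 82 calls among the genes named by rule, 21 were lost in the fit of all 24 arrays, 32 in batch A alone, 81 in batch B alone, 81 without the batch term and 5 to 24 with 1 array left out, and 0 changed sign in any alternative.

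On the light arrays the counts of 14 and 12 became 4 and 7 with the replicate block, 0 (limma, 19 at unadjusted p under 0.05) and 1 without a batch term, 43 and 40 with all 12 light arrays in the fit, 151 and 124 with all 24 arrays, 0 (270 at unadjusted p under 0.05) and 0 (216) in batch A alone, 0 (153) and 0 (145) in batch B alone, 5 and 6 with every probe set tested, and 385 and 329 with array weights. After quantile normalization 27 genes were called on the dorsal side. With 1 array left out the counts ranged from 1 to 68 and from 0 (209 at unadjusted p under 0.05) to 57. The number of genes whose difference changed between sham and light was 0 (401 at unadjusted p under 0.05), 1 with all 24 arrays, 4 with array weights and 0 to 1 with 1 array left out. The causes were not tested.

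Among named genes that were not called, the sign turned for Avpr1a, at 0.0061 in batch A alone, and Bhlhe41, at 0.24 in batch A alone. With 1 array left out it turned for Rgs16 (from -0.36 to 0.12), Dbp (from -0.0016 to 0.15), Bhlhe41 (from -0.28 to 0.065) and Slc4a1 (from -0.25 to 0.021). Of 145 further probe sets of called genes with a mean above 5, 137 went the same way and 8 the other way, those of Ankrd12, Ccdc30, Dtna, Insyn2a, Maoa, Mbp, Scn1a and Sfswap.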
